A study of Mus musculus with 12 samples.

Results

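The mitochondrial ribosomal protein genes of mouse C2C12 GFP cells were examined on uncoated plates and on 3 coatings. They were taken as all protein-coding genes of the deposited count table whose mouse symbol is Mrpl or Mrps followed by a digit, and 78 of the 55536 genes in the table met this rule. C2C12 GFP is a mouse myoblast line that carries green fluorescent protein and forms myotubes in culture, and the study asked how the coating of the plate affects the kind of muscle fiber formed. RNA was sequenced from cells grown on uncoated plates, called the control, or on Collagen I, fibronectin or Geltrex, a basement membrane extract. Each group had 3 samples, 12 in all, and the groups differed by label in the coating alone. The labels do not give the day of differentiation at which RNA was taken.

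The mitochondrial ribosome makes the few proteins that are encoded by mitochondrial DNA, all of them subunits of the respiratory chain and ATP synthase. Its rRNAs are transcribed inside the organelle, whereas its proteins are encoded in the nucleus, made in the cytosol and imported. Some of these proteins descend from those of bacterial ribosomes and others were gained during the evolution of mitochondria, and muscle, which relies on oxidative metabolism, is among the tissues affected when they are mutated.

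Of the 78 genes, 51 encode proteins of the large subunit and 26 proteins of the small subunit. Mrps30 and Mrps18a count with the large subunit in spite of their symbols. The remaining gene, Mrps36, carries a ribosomal symbol, but its protein belongs to the 2-oxoglutarate dehydrogenase complex. By textbook nomenclature, 46 of the 77 subunit proteins share their name with a bacterial protein and are here called those with a bacterial homologue, 30 in the large and 16 in the small subunit. The other 31, 21 in the large and 10 in the small subunit, have names used for mitochondria only. Mrps18a and Mrps18b are among the 31 by name, although they are related to bacterial S18. A filter on low counts was passed by 77 of the 78 genes, and Mrpl53 alone failed it, with 0 counts in all 12 samples.

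Total counts on genes were 24147733, 27334546 and 23812461 in the control samples, 22598438, 26231581 and 23339363 on Collagen I, 27351766, 24614474 and 25734771 on fibronectin, and 23574363, 24477732 and 22520404 on Geltrex. Levels are given on the counts-per-million scale (CPM) after scaling of the libraries, in the order of replicates 1, 2 and 3. Among the tested members the lowest count in any sample was 19, in Mrps34. The members took between 0.155% and 0.217% of the counts of a sample.

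Some libraries stood apart from their group. Collagen I replicate 3 differed from replicates 1 and 2 by a mean squared difference of 44.7 and 65.1 in units of counting error, whereas replicates 1 and 2 differed from each other by 7.73. It also had the largest share of counts on mitochondrially encoded rRNAs and mRNAs, 11.45%, against 4.55% to 8.27% in the other 11 samples. The 3 Geltrex samples lay very close together, with values of 2.18, 4.54 and 3.84, where the control pairs had 21.9 to 31.4 and the fibronectin pairs 20.9 to 30.9. Nothing states that the 3 samples of a group came from separate cultures, so p-values measure only the spread between these samples. Several results changed without single libraries.

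The summed level of the 78 genes was 1973, 1855 and 1936 CPM in the control samples, 1988, 1927 and 2184 CPM on Collagen I, 1579, 1599 and 1712 CPM on fibronectin, and 1742, 1722 and 1667 CPM on Geltrex. All 6 fibronectin and Geltrex samples were below all 6 control and Collagen I samples. Control and Collagen I overlapped, and so did fibronectin and Geltrex. The group means ± SD (n = 3) were 1921 ± 60.4 CPM in the control, 2033 ± 134 on Collagen I, 1630 ± 71.9 on fibronectin and 1711 ± 38.7 on Geltrex. On the transcripts-per-million scale (TPM), which divides by exon length, the sums were 2951, 2846 and 2777 in the control, 2911, 2970 and 2850 on Collagen I, 2411, 2444 and 2504 on fibronectin, and 2510, 2482 and 2395 on Geltrex. The same 6 samples were low on both scales, but Collagen I replicate 3, the highest of all in summed CPM, was the lowest of its group in summed TPM.

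**Figure D1:**
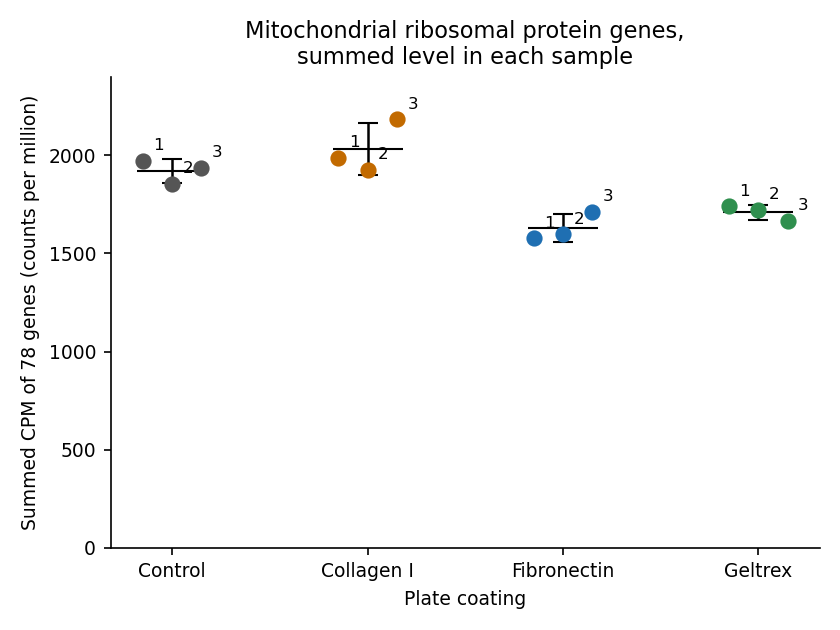
Summed level of the 78 mitochondrial ribosomal protein genes in CPM (y axis, from 0) in each sample of the 4 coatings (x axis). Points are samples with their replicate number, bars are the mean and SD of 3 samples, and the fibronectin and Geltrex samples lie between 1579 and 1742 CPM, below the control and Collagen I samples at 1855 to 2184 CPM.

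Gene by gene the order of the groups was similar. The highest group mean lay on Collagen I for 57 genes, in the control for 17, on Geltrex for 2 and on fibronectin for 1. The lowest lay on fibronectin for 51 genes, on Geltrex for 20, and in the control and on Collagen I for 3 each. Without Collagen I replicate 3 the highest mean lay on Collagen I for 42 genes, in the control for 31, on Geltrex for 3 and on fibronectin for 1. Collagen I replicate 3 was the highest sample for 49 genes, and fibronectin replicates 1 and 2 were the lowest for 25 and 28. The median difference of the members from their control mean was 0.24 on the log2 scale in Collagen I replicate 3, against 0.032 and 0.0058 in replicates 1 and 2 of that group. It was -0.28, -0.27 and -0.17 in the fibronectin samples and -0.15, -0.15 and -0.18 in the Geltrex samples.

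**Figure D2:**
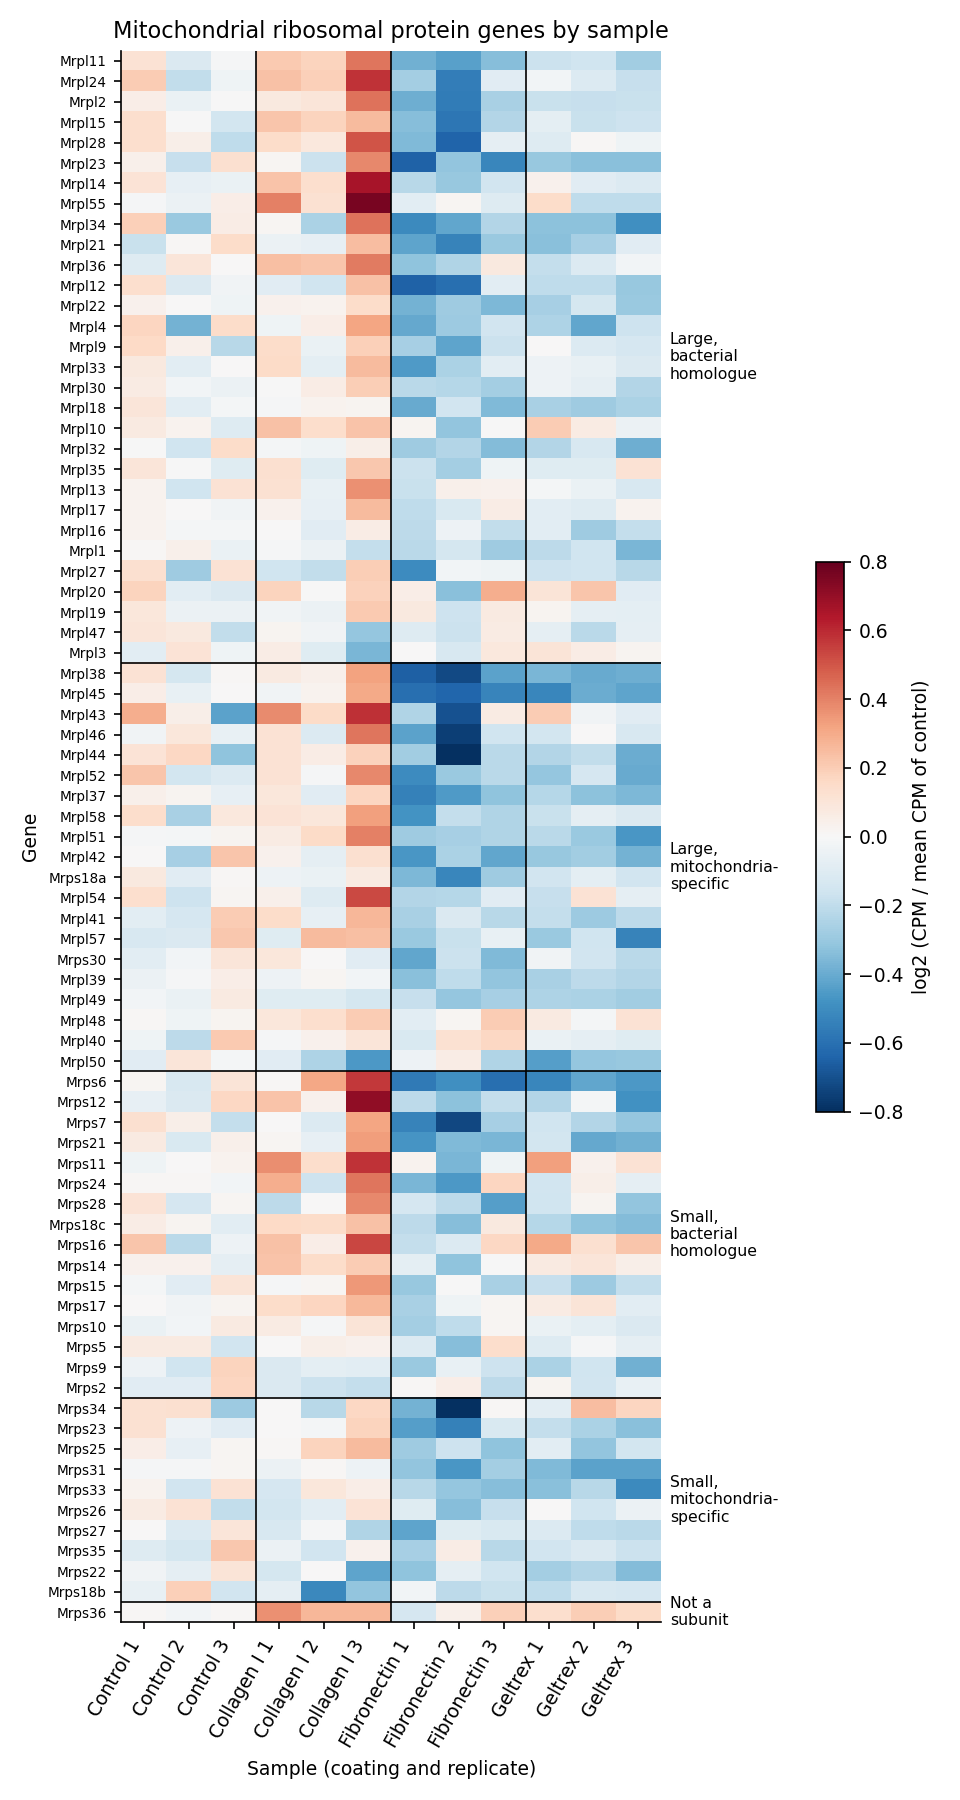
Level of the 77 tested genes (rows) in each of the 12 samples (columns), as the log2 of the CPM over the mean CPM of the control, with blue lower and red higher. Rows are grouped by subunit and by presence of a bacterial homologue, blue prevails in the 6 fibronectin and Geltrex columns, and the strongest red is in Collagen I replicate 3, the highest sample for 49 genes.

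The 6 comparisons below come from 1 fit of edgeR's quasi-likelihood test to 14499 genes, with Benjamini-Hochberg adjustment over all of them, and a gene was called at an adjusted p of at most 0.05 with no fold minimum. They share samples, so they are set side by side and not counted as separate evidence. Differences were small throughout: no member reached a 2-fold change at an adjusted p of 0.05 in any comparison by edgeR or by DESeq2.

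On fibronectin 26 of the 77 tested genes fell relative to the control and 0 rose, whereas 14.7% of all tested genes were called lower and 17.1% higher. The count of 0 is from edgeR, and 0 members were higher at an unadjusted p under 0.05 or in DESeq2, which called 26 lower. Below 0 lay 73 of the 77 log2 fold changes. Their median was -0.24, with a range of -0.60 to 0.06, beside a median of -0.02 over all tested genes. At 2-fold or more 0 members were called, against 6.66% of all genes. The count fell to 14 without fibronectin replicate 1, rose to 36 without Collagen I replicate 3, and was 18 to 26 without any of the other 10. Over the fits with single libraries left out, 9.952% to 17.97% of all tested genes were called lower on fibronectin. The lowest count, 14 of 77, is near the upper end of those shares.

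Mrpl38 and Mrpl45 of the large subunit and Mrps6 and Mrps7 of the small subunit had the lowest log2 fold changes among the genes that fell on fibronectin with no overlap between the groups. Mrpl45 (ENSMUSG00000018882, chr11:97315716-97329920, plus strand, GRCm38) has no bacterial homologue, and its protein lies near the exit of the peptide tunnel, where the ribosome contacts the inner membrane. Its level was 49.6, 46 and 48 CPM in the control, 47, 48.8 and 59 on Collagen I, 31.5, 30.9 and 33.2 on fibronectin, and 33.4, 36.4 and 35.7 on Geltrex. Every fibronectin and Geltrex sample was well below every control and Collagen I sample. Relative to the control Mrpl45 fell on fibronectin by 0.59 on the log2 scale (SE 0.09, edgeR Benjamini-Hochberg adjusted p = 0.000143), a 1.5-fold difference. Mrpl38 (ENSMUSG00000020775, chr11:116131817-116138868, minus strand), also without a bacterial homologue, had 29.2, 24.4 and 27.1 CPM in the control, 28.3, 27.6 and 33.6 on Collagen I, 17.1, 16.3 and 20 on fibronectin, and 20.9, 20.4 and 20.6 on Geltrex. The fibronectin samples were the lowest and did not overlap those of the other 3 groups. It fell by 0.60 against the control (SE 0.11, edgeR Benjamini-Hochberg adjusted p = 0.000522).

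Mrps6 (ENSMUSG00000039680, chr16:92058270-92112227, plus strand) encodes the homologue of bacterial protein S6. Its level was 28.2, 25.6 and 29.9 CPM in the control, 28.1, 34.6 and 41.4 on Collagen I, 18.8, 19.9 and 18.4 on fibronectin, and 19.4, 20.9 and 20.3 on Geltrex. The 3 Collagen I values were the most spread, and the fibronectin and Geltrex values lay together below all others. On fibronectin it fell by 0.55 on the log2 scale against the control (SE 0.12, edgeR Benjamini-Hochberg adjusted p = 0.00226). Of its exon length 19.9% overlaps exons of other genes, the largest part those of Gm49711 on the same strand, so its counts may include reads of other genes. Mrps7 (ENSMUSG00000046756, chr11:115603925-115608036), the homologue of bacterial S7, had 36.9, 34.9 and 29.6 CPM in the control, 33.8, 31.3 and 42.1 on Collagen I, 23.4, 20.4 and 28 on fibronectin, and 30.2, 28.7 and 27.3 on Geltrex. Its fibronectin samples were below those of the control and of Collagen I, and its Geltrex samples overlapped both the control and fibronectin. The fall on fibronectin was -0.50 on the log2 scale (SE 0.13, edgeR Benjamini-Hochberg adjusted p = 0.00799).

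**Figure D3:**
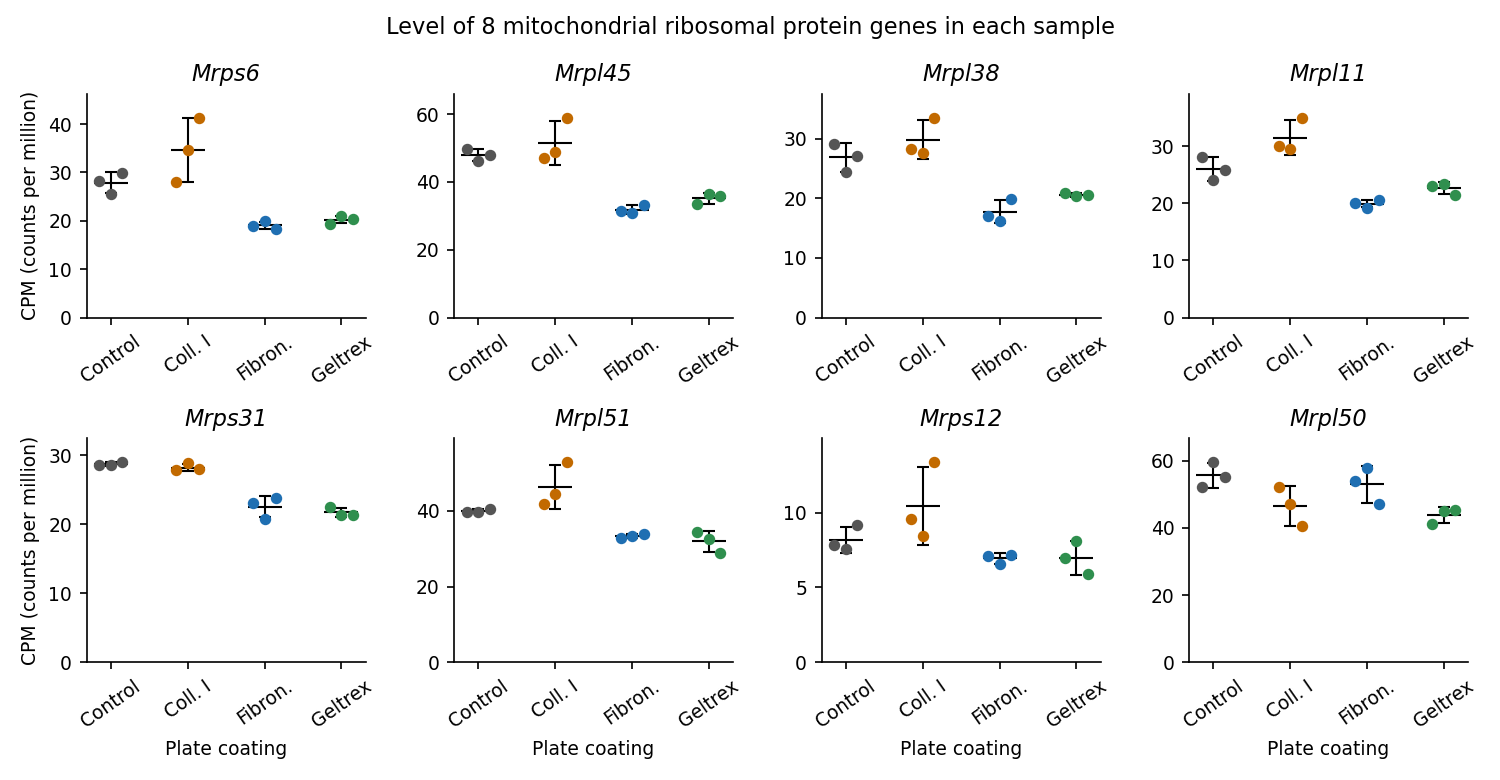
CPM (y axes, from 0) of 8 genes in each sample of the 4 coatings (x axes). Points are samples, bars are the mean and SD of 3 samples, Mrps6, Mrpl45 and Mrpl38 are low in all fibronectin and Geltrex samples, and Mrpl50 has its lowest Collagen I value, 40.5 CPM, in the replicate that is highest for most genes.

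On Geltrex 14 of the 77 genes fell relative to the control and 0 rose, against 16.6% of all tested genes called lower and 16.4% higher. The share of members called lower, 18.2%, was thus close to that of all genes. The count of 0 is from edgeR, with 0 members higher at an unadjusted p under 0.05, and DESeq2 called 0 higher and 14 lower. Of the log2 fold changes 66 lay below 0 and 11 above, with a median of -0.16 and a range of -0.46 to 0.22, beside a median of -0.01 for all tested genes. At 2-fold or more 0 members were called, against 9.14% of all genes. The number that fell was 9 without control replicate 3, 9 without Geltrex replicate 1, 7 without Geltrex replicate 2 and 5 without Geltrex replicate 3. It was 21 without Collagen I replicate 3. Over the fits with single libraries left out, 11.71% to 19.02% of all tested genes were called lower on Geltrex. The counts of 9, 7 and 5 of 77 are near or below those shares.

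The genes that fell most on Geltrex with no overlap between the groups were Mrps6, Mrpl45, Mrps31 and Mrpl38. Against the control Mrps6 fell by 0.46 (SE 0.12, edgeR Benjamini-Hochberg adjusted p = 0.00656) and Mrpl45 by 0.45 (SE 0.09, adjusted p = 0.00117). Mrps31 (ENSMUSG00000031533, chr8:22411361-22429665, plus strand), a small subunit gene without a bacterial homologue, had 28.6, 28.5 and 29 CPM in the control, 27.8, 28.8 and 27.9 on Collagen I, 23.1, 20.8 and 23.8 on fibronectin, and 22.5, 21.3 and 21.4 on Geltrex. In the control and on Collagen I it was the most even of these 4 genes, and its Collagen I replicate 3 did not stand out. It fell by 0.40 on Geltrex (SE 0.08, edgeR Benjamini-Hochberg adjusted p = 0.00106) and by 0.35 on fibronectin (SE 0.08, adjusted p = 0.00368). For Mrpl38 the fall on Geltrex was 0.38 (SE 0.10, edgeR Benjamini-Hochberg adjusted p = 0.0103).

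Between Collagen I and fibronectin 48 of the 77 genes were higher on Collagen I and 0 were lower, whereas 22.1% of all tested genes were called higher and 22.9% lower. The 0 is from edgeR, with 0 members lower at an unadjusted p under 0.05, and DESeq2 called 46 higher and 0 lower. The log2 fold changes, Collagen I over fibronectin, had a median of 0.33, beside 0.02 for all tested genes, and ranged from -0.19 to 0.87, with 71 above 0. No member passed 2-fold, which 8.46% of all genes did. Without Collagen I replicate 3 the count was 36 and the median 0.29. Without fibronectin replicate 3, 1 member was called lower.

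Mrps6 had the largest difference, 0.87 on the log2 scale or 1.82-fold (SE 0.12, edgeR Benjamini-Hochberg adjusted p = 3.36e-05), and 0.73 without Collagen I replicate 3. Mrpl38 was higher on Collagen I by 0.75 (SE 0.10, edgeR Benjamini-Hochberg adjusted p = 4.82e-05), and by 0.66 without that replicate. The difference in Mrpl45 was 0.69 (SE 0.09, edgeR Benjamini-Hochberg adjusted p = 2.07e-05), and 0.59 without it. Mrpl11 (ENSMUSG00000024902, chr19:4962147-4966999, plus strand), the homologue of bacterial L11 at the base of the ribosomal stalk, had 28.2, 24.1 and 25.9 CPM in the control, 30.1, 29.4 and 35 on Collagen I, 20, 19.3 and 20.6 on fibronectin, and 23.1, 23.3 and 21.5 on Geltrex. Its groups were ordered Collagen I, control, Geltrex, fibronectin with no overlap between any of them. Collagen I exceeded fibronectin by 0.66 (SE 0.09, edgeR Benjamini-Hochberg adjusted p = 4.86e-05), and by 0.58 without Collagen I replicate 3.

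Between Collagen I and Geltrex 30 of the 77 genes were higher on Collagen I and 0 lower, against 18.2% and 19% of all tested genes. The 0 is from edgeR, with 0 members lower at an unadjusted p under 0.05, and DESeq2 called 30 higher and 0 lower. The median log2 fold change, Collagen I over Geltrex, was 0.24, beside 0.03 for all tested genes, with 73 values above 0 and a range of -0.18 to 0.78. No member passed 2-fold, against 9.32% of all genes. The count was 15 without Collagen I replicate 3, 17 without Geltrex replicate 1, 19 without Geltrex replicate 2 and 14 without Geltrex replicate 3. With single libraries left out, 12.89% to 18.94% of all tested genes were called higher on Collagen I than on Geltrex. The lowest of the member counts, 14 of 77, is near those shares. The median of the members without Collagen I replicate 3 was 0.18.

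Mrps6 again had the largest difference, 0.78 (SE 0.12, edgeR Benjamini-Hochberg adjusted p = 9.52e-05), and 0.63 without Collagen I replicate 3. Mrpl45 was higher by 0.55 (SE 0.09, edgeR Benjamini-Hochberg adjusted p = 0.000188), and by 0.44 without that replicate. Mrpl51 (ENSMUSG00000030335, chr6:125191801-125196269, plus strand), of the large subunit and without a bacterial homologue, had 39.8, 39.7 and 40.6 CPM in the control, 41.9, 44.4 and 52.9 on Collagen I, 32.9, 33.2 and 33.9 on fibronectin, and 34.5, 32.6 and 29 on Geltrex. Fibronectin and Geltrex overlapped and lay below the control, which lay below Collagen I. Its difference between Collagen I and Geltrex was 0.53 (SE 0.09, edgeR Benjamini-Hochberg adjusted p = 0.000347), and 0.43 without Collagen I replicate 3. Mrps12 (ENSMUSG00000045948, chr7:28739641-28741820, minus strand), whose protein forms part of the decoding center, had 7.83, 7.56 and 9.17 CPM in the control, 9.58, 8.40 and 13.4 on Collagen I, 7.09, 6.53 and 7.18 on fibronectin, and 6.96, 8.12 and 5.86 on Geltrex. Collagen I replicate 3 was far above its group, and the control overlapped Collagen I. Mrps12 differed between Collagen I and fibronectin by 0.59 (SE 0.17, edgeR Benjamini-Hochberg adjusted p = 0.00992), and by 0.38 without Collagen I replicate 3 (adjusted p = 0.0591). It was higher on Collagen I than on Geltrex by 0.58 (SE 0.17, edgeR Benjamini-Hochberg adjusted p = 0.0137), but by 0.36 without Collagen I replicate 3 (edgeR Benjamini-Hochberg adjusted p = 0.0801) and 0.46 without Geltrex replicate 3 (adjusted p = 0.0743).

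Between Collagen I and the control no member was called by edgeR in either direction, against 0.2% of all tested genes called higher, 0.917% called lower and 0.131% at 2-fold. At an unadjusted p under 0.05 there were 13 members, 11 higher and 2 lower on Collagen I, and DESeq2 called 0. The log2 fold changes had a median of 0.09, beside -0.0031 for all tested genes, and 59 lay above 0. Without Collagen I replicate 3 the median was 0.0076, with 41 above 0 and 1 member at an unadjusted p under 0.05, and without Collagen I replicate 2 the median was 0.151. The smallest p-values belonged to Mrps36, with a log2 fold change of 0.30 (SE 0.10, edgeR Benjamini-Hochberg adjusted p = 0.142), and Mrpl11, with 0.28 (SE 0.09, adjusted p = 0.165). Without Collagen I replicate 3 their log2 fold changes were 0.31 and 0.19 (edgeR Benjamini-Hochberg adjusted p = 0.2 and 0.447).

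Between fibronectin and Geltrex no member was called by edgeR, against 10.3% of all tested genes called higher on fibronectin, 9.06% lower and 3.98% at 2-fold. There were 3 members at an unadjusted p under 0.05, 1 higher and 2 lower on fibronectin, and DESeq2 called 0. The median log2 fold change, fibronectin over Geltrex, was -0.07, beside -0.0049 for all tested genes, with 55 values below 0. This median was -0.1205 without fibronectin replicate 3 and -0.1149 without Geltrex replicate 3. Without fibronectin replicate 3, 7 members were called lower and 1 higher, and without Collagen I replicate 3, 1 was called lower and 1 higher. Mrps18a had a log2 fold change of -0.25 (SE 0.09, edgeR Benjamini-Hochberg adjusted p = 0.057), and its adjusted p was 0.0337 without fibronectin replicate 3 and 0.0375 without Collagen I replicate 3. Mrpl50, with no bacterial homologue, had 0.28 (SE 0.10, edgeR Benjamini-Hochberg adjusted p = 0.0687), and 0.0262 and 0.0376 as the adjusted p without these replicates.

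**Figure D4:**
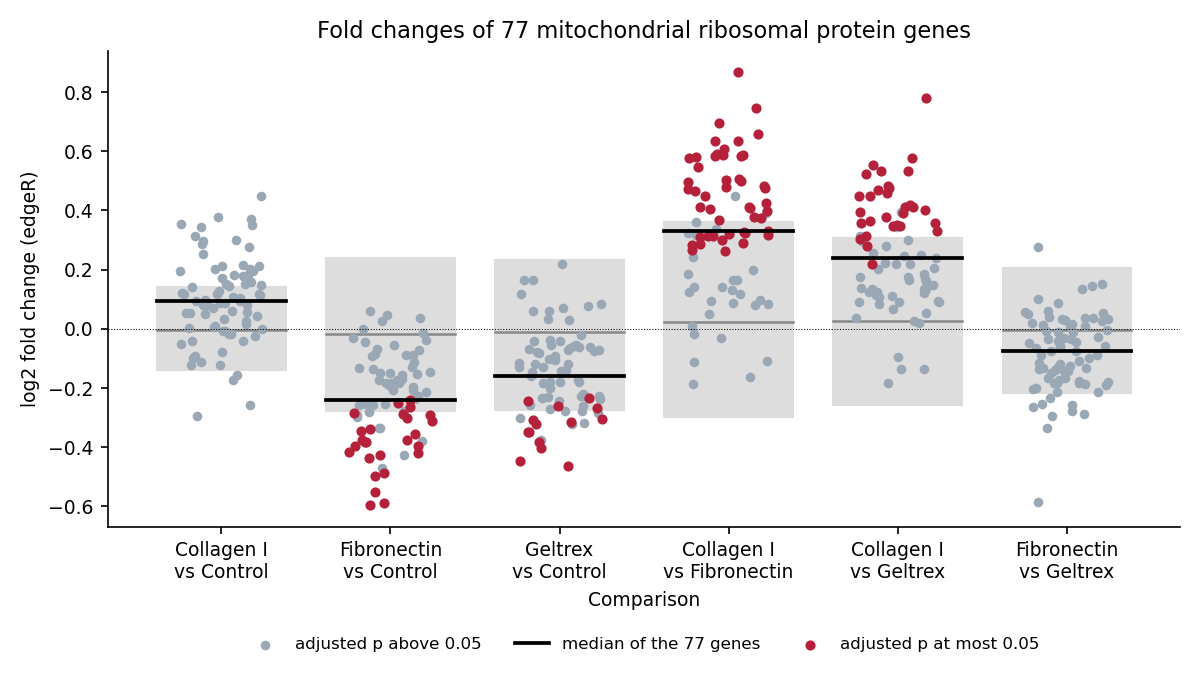
Log2 fold changes from edgeR (y axis) of the 77 tested genes (points) in the 6 comparisons (x axis), the first group named over the second. Red points have an adjusted p of at most 0.05, black lines are the members' medians, and gray boxes span the quartiles of all 14499 tested genes around their median, and the members' medians are -0.24 and -0.16 for fibronectin and Geltrex over the control and 0.33 and 0.24 for Collagen I over fibronectin and Geltrex.

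In the 3 comparisons given here the 77 genes were also less spread in fold change than tested genes at large, a difference that was not tested. The tested genes at large were not matched to the members in level. The interquartile range of the log2 fold changes was 0.21 for the members and 0.52 for all tested genes between fibronectin and the control. It was 0.20 and 0.51 between Geltrex and the control, and 0.32 and 0.66 between Collagen I and fibronectin. Called in none of the 6 comparisons were 25 members, or 32.5%, beside 36.2% of all tested genes. They were 9 of the large subunit and 7 of the small subunit with a bacterial homologue, and 3 and 6 without one.

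Markers of proliferation and of myotubes differed between the same groups. All 8 of 8 tested proliferation markers were called higher on fibronectin and on Geltrex than in the control by edgeR. Their summed level was 263, 300 and 321 CPM in the control, 236, 228 and 250 on Collagen I, 693, 894 and 761 on fibronectin, and 736, 796 and 788 on Geltrex, with Top2a the most abundant. Of 12 myotube markers 11 were tested, and all 11 were called lower on fibronectin and on Geltrex than in the control. Their summed level was 7666, 7923 and 6976 CPM in the control, 7853, 7634 and 7571 on Collagen I, 2629, 2234 and 2318 on fibronectin, and 3396, 3104 and 3295 on Geltrex, with Myh3 the most abundant. No marker of either list was at 0. Thus the 6 samples with low mitochondrial ribosomal protein genes were also high in proliferation and low in myotube markers, and their part in the result was not tested. In bulk samples fewer cells of a type and less RNA per cell cannot be told apart.

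Markers of other cell types were checked in the same samples. The 5 myoblast and reserve cell markers summed to 408, 391 and 359 CPM in the control, 383, 353 and 375 on Collagen I, 356, 315 and 369 on fibronectin, and 425, 424 and 422 on Geltrex, with Cdh15 the most abundant. By edgeR 1 of the 5 was called higher and 2 lower on fibronectin than in the control, and 2 higher on Geltrex. These counts fell to 1 lower without control replicate 1 or 2 or fibronectin replicate 2, and to 1 higher without control replicate 2 or 3, Collagen I replicate 1 or any Geltrex replicate. The 6 fibroblast markers summed to 6235, 6417 and 6854 CPM in the control, 6790, 6410 and 5977 on Collagen I, 6408, 5612 and 6713 on fibronectin, and 5848, 5673 and 5473 on Geltrex. Col3a1 was the most abundant of them and Thy1 was at 0. The sum hides calls by edgeR among the 5 tested, 2 lower on fibronectin than in the control (Lum and Dcn) and 3 on Geltrex (Lum, Dcn and Pdgfrb). Lum had 75.8, 92.1 and 104 CPM in the control, 96.3, 90.1 and 72.7 on Collagen I, 51, 44.8 and 65.8 on fibronectin, and 20.7, 19.4 and 17.4 on Geltrex. Only 1 of the 2 was called on fibronectin without control replicate 3, Collagen I replicate 1 or 2, fibronectin replicate 1 or 2, or any of the Geltrex replicates 1, 2 and 3. Pdgfrb was also called lower on Collagen I than in the control, a call lost without Collagen I replicate 2, and 2 were called there without control replicate 1 or fibronectin replicate 2. Compared with fibronectin, edgeR called Lum and Dcn higher and Pdgfra and Pdgfrb lower on Collagen I. Compared with Geltrex, Lum and Dcn were called higher and Pdgfra lower on Collagen I. Of the 2 higher than fibronectin, 1 was left without Collagen I replicate 1 or fibronectin replicate 1 or 2. Pdgfra had 34, 39 and 42 CPM in the control, 31, 28.8 and 21.95 on Collagen I, 38.85, 33.5 and 38.9 on fibronectin, and 42.4, 41.6 and 44.8 on Geltrex. The part of these markers in the result was not tested either. None of the 5 adipocyte and 5 epithelial markers passed the filter on low counts, and 1 of 5 white blood cell markers (Cd68) and 1 of 4 endothelial markers (Tek) did. The most abundant gene of the 4 lists was Tek, Adgre1, Epcam, Krt5 and Krt8 were at 0, and the summed level of each list was at most 3.49 CPM in any sample. By edgeR Tek was called lower on Geltrex than in the control, a call lost without Geltrex replicate 1, and higher on fibronectin than on Geltrex. It was also called lower on Collagen I than on fibronectin, a call lost without Collagen I replicate 2 or 3 or fibronectin replicate 1 or 2. Tek had 1.75, 2.68 and 2.29 CPM in the control, 1.95, 0.892 and 1.55 on Collagen I, 3.305, 2.85 and 1.98 on fibronectin, and 0.555, 0.989 and 1.31 on Geltrex.

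Within the large subunit, 20 of the 50 tested genes fell on fibronectin and 10 on Geltrex against the control, and 34 and 21 were higher on Collagen I than fibronectin and Geltrex. Of the 26 small subunit genes 6 fell on fibronectin and 4 on Geltrex, and 13 and 9 were higher on Collagen I. The median log2 fold change, fibronectin over control, was -0.27 in the large and -0.19 in the small subunit. For Geltrex over control the medians were -0.16 and -0.17. Without fibronectin replicate 1 the counts that fell on fibronectin were 11 and 3. On Geltrex the large subunit count was 5, 4 and 3 without Geltrex replicates 1, 2 and 3, and the small subunit count was 2 without control replicate 3 or Geltrex replicate 3 and 7 without Collagen I replicate 3. Between Collagen I and Geltrex the counts were 10 and 5 without Collagen I replicate 3, and the large subunit count was 10, 13 and 8 without Geltrex replicates 1, 2 and 3. With single libraries left out, 12.89% to 18.94% of all tested genes were called higher on Collagen I than on Geltrex. The counts of 10 and 8 of 50 and 5 of 26 are near those shares. For Collagen I over fibronectin the subunit counts were 26 and 9 without Collagen I replicate 3. Of all tested genes 14.7% were called lower on fibronectin and 16.6% on Geltrex, and 22.1% and 18.2% were called higher on Collagen I than on these. On Geltrex 4 of 26 is near that share and 10 of 50 little above it. Without single libraries 9.952% to 17.97% of all tested genes were lower on fibronectin and 11.71% to 19.02% on Geltrex. The 3 of 26 on fibronectin lies within the former. The 5, 4 and 3 of 50 and 2 of 26 on Geltrex lie below the latter. Whether the subunits differed was not tested.

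Split by origin, the median log2 fold change on fibronectin was -0.25 in the 30 large subunit genes with a bacterial homologue and -0.29 in the 20 tested without one. In the small subunit it was -0.16 in the 16 with a homologue and -0.23 in the 10 without. The medians on Geltrex were -0.12, -0.25, -0.11 and -0.18 in that order, beside -0.02 and -0.01 for all tested genes on fibronectin and Geltrex. Whether the classes differed was not tested either.

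Mrpl12 (ENSMUSG00000039640, chr11:120484613-120489065, plus strand) encodes a stalk protein that also binds the mitochondrial RNA polymerase. It had 18.4, 15.6 and 16.5 CPM in the control, 15.8, 15.1 and 19.8 on Collagen I, 10.7, 11.1 and 15.9 on fibronectin, and 14.6, 14.6 and 13.6 on Geltrex. Fibronectin replicate 3 lay among the control samples, above replicates 1 and 2 of its group. On fibronectin it was lower than in the control by a log2 fold change of -0.42 (SE 0.14, edgeR Benjamini-Hochberg adjusted p = 0.0373). That call was lost without any of 7 libraries, with edgeR Benjamini-Hochberg adjusted p of 0.141 and 0.0631 without control replicates 1 and 3, 0.166 and 0.139 without fibronectin replicates 1 and 2, and 0.0524, 0.0523 and 0.0509 without Geltrex replicates 1, 2 and 3. Between Collagen I and fibronectin its log2 fold change was 0.43 (SE 0.15, edgeR Benjamini-Hochberg adjusted p = 0.0262), a call lost without Collagen I replicate 3 (adjusted p = 0.124) and without fibronectin replicate 1 or 2 (adjusted p = 0.122 and 0.106).

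Mrpl2 (ENSMUSG00000002767, chr17:46646229-46650139), the homologue of bacterial L2 next to the peptidyl transferase center, had 31, 28.8 and 29.8 CPM in the control, 31.5, 31.9 and 40.4 on Collagen I, 22.8, 20.3 and 25 on fibronectin, and 26.4, 26.2 and 26.4 on Geltrex. The 4 groups did not overlap, and Collagen I replicate 3 was the highest sample by a wide margin. It was higher on Collagen I than fibronectin by 0.61 (SE 0.10, edgeR Benjamini-Hochberg adjusted p = 0.000276), and by 0.49 without that replicate. Mrpl58 (ENSMUSG00000018858), a peptidyl-tRNA hydrolase that became part of the large subunit, had 22, 16.7 and 21.2 CPM in the control, 21.6, 21.3 and 25.1 on Collagen I, 14.4, 17.5 and 16.9 on fibronectin, and 17.7, 19 and 18.4 on Geltrex. Control replicate 2 lay within the fibronectin range, and the Collagen I samples were above all fibronectin and Geltrex samples. Collagen I exceeded fibronectin by 0.48 (SE 0.12, edgeR Benjamini-Hochberg adjusted p = 0.00386).

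Mrpl44 (ENSMUSG00000026248), which has the fold of a ribonuclease, had 19.9, 20.6 and 14.7 CPM in the control, 20, 19.2 and 20.9 on Collagen I, 15.2, 10 and 15.9 on fibronectin, and 15.6, 16 and 14 on Geltrex. Fibronectin replicate 2 was the lowest sample and control replicate 3 was within the Geltrex range. It was higher on Collagen I than fibronectin by 0.55 (SE 0.15, edgeR Benjamini-Hochberg adjusted p = 0.00982), and by 0.36 without fibronectin replicate 2. Mrpl41 (ENSMUSG00000036850), another gene without a bacterial homologue, had 14.4, 13.9 and 17.6 CPM in the control, 17, 14.6 and 18.4 on Collagen I, 12.8, 14.2 and 13.2 on fibronectin, and 13.4, 12.5 and 13.3 on Geltrex. Its groups lay close together, and Collagen I replicate 2 was near the fibronectin samples. Collagen I exceeded Geltrex by 0.35 (SE 0.11, edgeR Benjamini-Hochberg adjusted p = 0.0259), a call lost without Collagen I replicate 1 or 3 (adjusted p = 0.0718 and 0.101) and without Geltrex replicate 1, 2 or 3 (adjusted p = 0.0606, 0.0987 and 0.0645).

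Mrpl50 (ENSMUSG00000044018, chr4:49512596-49521093, minus strand), of the large subunit, ran differently from most members. It had 52.3, 59.6 and 55.2 CPM in the control, 52.3, 47 and 40.5 on Collagen I, 54.1, 58 and 47.1 on fibronectin, and 41.1, 45 and 45.3 on Geltrex. Collagen I replicate 3 was the lowest of the 12 samples, and fibronectin overlapped the control. It fell on Geltrex by 0.35 against the control (SE 0.10, edgeR Benjamini-Hochberg adjusted p = 0.0154), a call lost without control replicate 2 (adjusted p = 0.0745) or Geltrex replicate 1 (adjusted p = 0.0882).

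In the small subunit, Mrps22 (ENSMUSG00000032459), which has no bacterial homologue, was called in none of the comparisons. It had 22.9, 22.2 and 25.1 CPM in the control, 21.3, 23.5 and 17.5 on Collagen I, 18.7, 22.2 and 20.9 on fibronectin, and 19.4, 19.9 and 18.4 on Geltrex. Its lowest value was in Collagen I replicate 3, and its Geltrex samples lay below those of the control. Mrps21 (ENSMUSG00000054312, chr3:95862634-95871519), the homologue of bacterial S21, had 37.3, 32.6 and 36.4 CPM in the control, 35.8, 33.8 and 44.7 on Collagen I, 25.5, 27.7 and 27.5 on fibronectin, and 31.9, 26.7 and 27.1 on Geltrex. All fibronectin and Geltrex samples lay below all others. Collagen I exceeded fibronectin by 0.50 (SE 0.11, edgeR Benjamini-Hochberg adjusted p = 0.00175) and by 0.37 without Collagen I replicate 3.

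The 3 Mrps18 genes belong to different places in the ribosome, Mrps18a to the large subunit and Mrps18b and Mrps18c to the small subunit. Mrps18a (ENSMUSG00000023967, chr17:46110986-46128910, plus strand) had 26.5, 23.7 and 25.3 CPM in the control, 24.4, 24.3 and 26.4 on Collagen I, 19.6, 17.5 and 20.7 on fibronectin, and 22.6, 23.8 and 22.6 on Geltrex. The fibronectin samples were below those of the 3 other groups, and the Geltrex samples were below those of Collagen I and overlapped the control. It fell on fibronectin by 0.38 against the control (SE 0.09, edgeR Benjamini-Hochberg adjusted p = 0.00397). Mrps18c (ENSMUSG00000016833) had 13.2, 12.8 and 11.9 CPM in the control, 14.1, 14 and 14.9 on Collagen I, 10.9, 9.96 and 13.3 on fibronectin, and 10.8, 10.1 and 9.92 on Geltrex. Its Collagen I samples were the highest and its Geltrex samples low and close together. Mrps18c was higher on Collagen I than on Geltrex by 0.48 (SE 0.11, edgeR Benjamini-Hochberg adjusted p = 0.00374). Mrps18b (ENSMUSG00000024436) was called in none of the comparisons, with 9.62, 11.5 and 9.04 CPM in the control, 9.58, 7.02 and 8.07 on Collagen I, 9.92, 8.71 and 8.89 on fibronectin, and 8.71, 9.19 and 9.15 on Geltrex. All 4 of its groups overlapped.

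Mrps30 (ENSMUSG00000021731), of the large subunit, had 33, 34.6 and 37.5 CPM in the control, 37.3, 35.1 and 32.9 on Collagen I, 26.2, 31.1 and 27.4 on fibronectin, and 34.3, 31.5 and 30.2 on Geltrex. The fibronectin samples were below the control and Collagen I samples and overlapped Geltrex. It fell on fibronectin by 0.31 against the control (SE 0.09, edgeR Benjamini-Hochberg adjusted p = 0.0165), a call lost without control replicate 3 (adjusted p = 0.0665), fibronectin replicate 1 (0.0927) or fibronectin replicate 3 (0.0508). Mrps36 (ENSMUSG00000061474), which is not a ribosome subunit, had 15.6, 15.3 and 15.7 CPM in the control, 20.1, 18.6 and 18.7 on Collagen I, 14.2, 15.9 and 17.7 on fibronectin, and 17.1, 17.8 and 17.3 on Geltrex. The control samples were low and nearly equal, and the Collagen I samples were above all others. Without Mrps36 the counts of genes that fell on fibronectin and on Geltrex were unchanged at 26 and 14 of 76, and 47 and 30 were higher on Collagen I than on these.

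Per exon length, the level of the 77 tested genes had a median of 26.5 TPM, with quartiles of 18.1 and 45.6 TPM. The median was 32.8 TPM in the large and 23.9 TPM in the small subunit. Mrps21, at 148 TPM, Mrpl2, at 82.4 TPM, and Mrpl50, at 81 TPM, were the highest in mean TPM over the 12 samples. Mrps34, at 3.26 TPM, Mrps35, at 7.98 TPM, and Mrps25, at 8.64 TPM, were the lowest. Mrps34 was called in no comparison, with 2.27, 2.27 and 1.70 CPM in the control, 2.08, 1.78 and 2.33 on Collagen I, 1.60, 0.795 and 2.10 on fibronectin, and 1.97, 2.47 and 2.35 on Geltrex. Its fibronectin replicate 2 was the lowest, on few counts. Mrps35 had 19.9, 19.3 and 24.8 CPM in the control, 20.7, 19.2 and 21.9 on Collagen I, 17.8, 22.3 and 18.2 on fibronectin, and 19.2, 19.7 and 18.9 on Geltrex, with overlap between all groups. Mrps25 had 18, 16.6 and 17.6 CPM in the control, 17.5, 19.7 and 20.7 on Collagen I, 14.3, 15.5 and 13.9 on fibronectin, and 16.4, 14 and 15.7 on Geltrex, and was higher on Collagen I than fibronectin by 0.40 (SE 0.10, edgeR Benjamini-Hochberg adjusted p = 0.00395).

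The 78 genes lie on 17 chromosomes, 11 of them on chromosome 11 and 8 on chromosome 17. Exons of 33 members overlap those of another gene, 18 of them over more than 10% of their exon length and 3 over more than 50%. These 3 were Mrpl53, with 88% in other genes, Mrps34, with 77.8%, and Mrps25, with 69.8%. The largest part lay in Gm42688 on the same strand for Mrpl53. It lay in Mapk8ip3 for Mrps34 and in Nr2c2 for Mrps25, both on the other strand. The strand used in counting was not given, so the levels of Mrps34 and Mrps25 are uncertain. The level of Mrpl53 is uncertain whichever strand was used. Mrpl46 and Mrps11 start next to each other on opposite strands of chromosome 7 and overlap exons of other genes over 12.2% and 7.97% of their exon lengths. The level of Mrpl46 was 8.55, 9.28 and 8.37 CPM in the control, 9.45, 8.10 and 11.8 on Collagen I, 6.5, 5.19 and 7.81 on fibronectin, and 7.90, 8.73 and 7.98 on Geltrex. Mrps11 had 8.31, 8.55 and 8.71 CPM in the control, 11, 9.40 and 12.7 on Collagen I, 8.69, 6.62 and 8.31 on fibronectin, and 10.7, 8.73 and 9.24 on Geltrex. Both were highest in Collagen I replicate 3 and lowest in fibronectin replicate 2.

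Processed pseudogenes with these symbols were counted apart and are not members. Mrpl48-ps had 63 to 99 counts per sample, Mrpl23-ps1 had 109 counts over the 12 samples, and Mrps36-ps1, Mrps36-ps2 and Mrps36-ps3 had 4, 9 and 0. How reads that fit both a gene and its pseudogene were counted was not given.

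Since 73 of the 77 log2 fold changes lay below 0 on fibronectin, the promoters of the members were compared for short motifs. Windows of 250 bases before and 50 bases after a gene start (RefSeq, GRCm38.p6) were available for 69 of the 78 genes, 75 windows in all. Missing were Mrpl13, Mrpl15, Mrpl19, Mrpl38, Mrpl4, Mrpl54, Mrps28, Mrps34 and Mrps35. Both strands were searched for exact letters. The ETS and GABP core CCGGAAG was in 34.7% of member windows, 8.86% of all 32851 windows and 16.9% of the 13185 windows of tested genes. The NRF1 core GCATGCGC was in 10.7%, 2.71% and 4.96%, and the YY1 core AAGATGG in 17.3%, 6.34% and 6.95%. The SP1 core GGGCGG was in 52%, 35.7% and 60.6%, the E-box CACGTG in 9.33%, 7.15% and 9.71%, and the TATA box TATAAA in 6.67%, 13.6% and 7.55%. A match describes the letters alone, not binding.

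The promoters of 4 members are shown, Mrps6 and Mrpl45 as the genes with the largest differences between Collagen I and fibronectin among those with a window, Mrps12 as a gene that lost a call without a single library, and Mrps18a as a gene that gained a call without a single library. Each is printed 5′ to 3′ along the gene's strand from RefSeq (GRCm38.p6), in lower case with motif matches in capitals, and stretches annotated as exons were left out. That of Mrps6, chr16:92058086-92058269 on the plus strand, covers bases -250 to -67 before the RefSeq start, where exons of Mrps6, Gm49711 and Slc5a3 begin, and holds 4 GC boxes, the first 2 of which overlap by 1 base. That of Mrps12, chr7:28741822-28741991 on the minus strand, covers bases -170 to -1, with an exon of Sars2 further upstream left out, and holds 1 GC box on the opposite strand. That of Mrps18a, chr17:46110754-46110985 on the plus strand, covers bases -250 to -19, up to the annotated first exon of the gene, and holds 1 ETS core. That of Mrpl45, chr11:97315466-97315715 on the plus strand, covers bases -250 to -1, holds no annotated exon and has no match to any of the 6 motifs.
Mrps6: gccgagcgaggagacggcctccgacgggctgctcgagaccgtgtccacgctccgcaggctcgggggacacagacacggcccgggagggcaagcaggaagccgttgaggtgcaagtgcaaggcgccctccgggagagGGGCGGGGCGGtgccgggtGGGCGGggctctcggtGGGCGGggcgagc
Mrps12: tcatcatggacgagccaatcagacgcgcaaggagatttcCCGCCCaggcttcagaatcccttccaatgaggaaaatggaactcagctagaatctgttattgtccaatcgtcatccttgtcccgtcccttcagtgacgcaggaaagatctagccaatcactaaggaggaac
Mrps18a: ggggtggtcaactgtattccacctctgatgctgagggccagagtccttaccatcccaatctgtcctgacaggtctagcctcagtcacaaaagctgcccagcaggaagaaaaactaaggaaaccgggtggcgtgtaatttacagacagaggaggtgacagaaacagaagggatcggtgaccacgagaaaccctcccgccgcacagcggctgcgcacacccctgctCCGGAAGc
Mrpl45: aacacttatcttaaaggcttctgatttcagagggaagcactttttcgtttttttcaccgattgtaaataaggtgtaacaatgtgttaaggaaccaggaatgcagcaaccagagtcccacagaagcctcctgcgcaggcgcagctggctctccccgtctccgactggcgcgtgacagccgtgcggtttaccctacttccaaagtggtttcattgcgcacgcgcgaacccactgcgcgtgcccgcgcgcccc

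Other genes of mitochondrial translation were taken from lists by function. Of all tested genes 14.7% were called lower and 17.1% higher on fibronectin than in the control, 16.6% lower and 16.4% higher on Geltrex, and 22.1% and 18.2% higher on Collagen I than fibronectin and Geltrex. Of 5 mitoribosome proteins with other symbols, 2 fell on fibronectin and 1 on Geltrex against the control by edgeR, and 2 and 1 were higher on Collagen I than fibronectin and Geltrex. The count on fibronectin was 1 without control replicate 1 or fibronectin replicate 1. That on Geltrex was 0 without control replicate 2 or Geltrex replicate 3 and 2 without Collagen I replicate 2 or 3. Between Collagen I and Geltrex it was 2 without control replicate 1 or Collagen I replicate 1 or 2. Chchd1, a small subunit protein, had a mean of 18 ± 1.47 CPM (SD, n = 3) in the control, 19.5 ± 0.860 on Collagen I, 13 ± 2.25 on fibronectin and 13.2 ± 1.26 on Geltrex. It was higher on Collagen I than fibronectin by 0.59 (SE 0.12, edgeR Benjamini-Hochberg adjusted p = 0.00135). Among 24 tested genes of mitoribosome assembly, 6 fell and 1 rose on fibronectin, and 4 fell and 1 rose on Geltrex. The 4 of 24, or 16.7%, are near the share of all tested genes. On Collagen I 12 were higher and 1 lower than on fibronectin, and 7 were higher and 0 lower than on Geltrex. Without fibronectin replicate 2 the 12 became 7, and the 1 lower was lost without Collagen I replicate 3 or fibronectin replicate 3. The 1 that rose on fibronectin was lost without control replicate 1 or fibronectin replicate 1 or 3, and 2 rose without control replicate 2 or 3. The 1 that rose on Geltrex was lost without control replicate 1 or 3, Collagen I replicate 1 or 2 or any Geltrex replicate. Mettl17, an assembly factor of the small subunit, had 15.7, 11.6 and 13.1 CPM in the control, 18.5, 16.1 and 15.8 on Collagen I, 7.54, 7.08 and 10.2 on fibronectin, and 10.5, 10.7 and 10.8 on Geltrex. Its Collagen I samples were the highest and its fibronectin samples the lowest, with a difference of 1.02 on the log2 scale (SE 0.14, edgeR Benjamini-Hochberg adjusted p = 4.55e-05). Mrm1, which methylates the large rRNA, had 10, 8.58 and 13.2 CPM in the control, 10.6, 9.81 and 12.5 on Collagen I, 12.3, 13.1 and 11.6 on fibronectin, and 5.34, 5.40 and 5.14 on Geltrex. It was low on Geltrex alone, where it fell by 1.0 against the control (SE 0.15, edgeR Benjamini-Hochberg adjusted p = 0.000113).

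With all samples, 14.7% of all tested genes were called lower on fibronectin and 16.6% on Geltrex, and with single libraries left out 9.952% to 17.97% and 11.71% to 19.02%. Of 12 tested mitochondrial translation factors, 5 fell and 1 rose on fibronectin, and 5 fell and 0 rose on Geltrex. On fibronectin 2 fell without control replicate 1 or fibronectin replicate 1 and 3 without control replicate 3, and the 1 that rose was lost without control replicate 1. On Geltrex 2 fell without Geltrex replicate 1 and 3 without control replicate 1 or 3 or Geltrex replicate 2 or 3, and 1 rose without Collagen I replicate 3. Tufm, the elongation factor that brings tRNA to the ribosome, had 53.1, 49.7 and 41 CPM in the control, 51, 53.8 and 57.8 on Collagen I, 34.2, 27 and 39.3 on fibronectin, and 40.4, 41.4 and 40.9 on Geltrex. Its fibronectin samples were below all others, and it fell there by 0.52 against the control (SE 0.12, edgeR Benjamini-Hochberg adjusted p = 0.00409). Of 19 mitochondrial aminoacyl-tRNA synthetases 5 fell and 1 rose on fibronectin, and 5 fell and 2 rose on Geltrex. On fibronectin 2 fell without control replicate 1 or 2 or fibronectin replicate 1 or 2, and the 1 that rose was lost without control replicate 1. On Geltrex 3 fell without control replicate 1, 2 or 3 or Geltrex replicate 1 and 2 fell without Geltrex replicate 2 or 3, and 1 rose without Geltrex replicate 2. The asparagine enzyme Nars2 had 22.6, 22.3 and 25.1 CPM in the control, 24.1, 22.4 and 18.6 on Collagen I, 13.4, 14.2 and 14.7 on fibronectin, and 13.8, 14.1 and 14.5 on Geltrex. It fell by 0.73 on fibronectin (SE 0.10, edgeR Benjamini-Hochberg adjusted p = 6.91e-05) and by 0.72 on Geltrex (SE 0.10, adjusted p = 5.85e-05), with no overlap with the control or Collagen I.

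In the list of 10 genes for mitochondrial transcription and mRNA stability, 1 fell and 0 rose on fibronectin, and 3 fell and 1 rose on Geltrex, the latter lost without control replicate 2 or 3 or any Geltrex replicate. Shares of all tested genes were 14.7% lower and 17.1% higher on fibronectin, and 16.6% and 16.4% on Geltrex. The counts of 1 of 10 are below these shares. The mitochondrial RNA polymerase Polrmt had 30.5, 26.2 and 25.4 CPM in the control, 26.7, 25.2 and 28.7 on Collagen I, 19.7, 15.2 and 19.3 on fibronectin, and 20.1, 19.9 and 21.7 on Geltrex. It fell by 0.60 on fibronectin (SE 0.11, edgeR Benjamini-Hochberg adjusted p = 0.000677). Of 15 mitochondrial rRNAs and mRNAs 3 fell and 0 rose on fibronectin, and 5 and 4 were higher on Collagen I than fibronectin and Geltrex. In these last 2 comparisons 22.1% and 18.2% of all tested genes were called higher on Collagen I by edgeR. DESeq2 called 5 and 2 of the 15 higher on Collagen I. Without Collagen I replicate 3 edgeR called 3 and 1, and mt-Co3 lost both calls (edgeR Benjamini-Hochberg adjusted p = 0.143 against fibronectin and 0.187 against Geltrex) and mt-Nd3 that against Geltrex (adjusted p = 0.264). Against fibronectin the count was also 3 without fibronectin replicate 1, 8 without control replicate 2 or Collagen I replicate 1 and 11 without Collagen I replicate 2. Against Geltrex it was 2, 2 and 1 without Geltrex replicates 1, 2 and 3, 7 and 8 without control replicates 2 and 3, and 11 without Collagen I replicate 2. Over the fits with single libraries left out, the shares of all tested genes were 16.34% to 22.46% against fibronectin and 12.89% to 18.94% against Geltrex. The 3 of 15 against fibronectin lie within those shares, and the 2 and 1 of 15 against Geltrex lie within or below theirs. Of the 3 that fell on fibronectin mt-Rnr1 and mt-Rnr2 were each lost without control replicate 1 or 3 or fibronectin replicate 1 or 2, which left 1. That 1 of 15 is below the 9.952% to 17.97% of all tested genes called lower there with single libraries left out. Between Geltrex and the control edgeR and DESeq2 called 0 of the 15, with 0 at an unadjusted p under 0.05, and edgeR called 1 lower without control replicate 2 or Collagen I replicate 3. Genes called lower on fibronectin than on Geltrex by edgeR included mt-Atp6, mt-Rnr2 and mt-Rnr1, with log2 fold changes of -1.38, -0.66 and -0.49. These calls were all lost without fibronectin replicate 1, and DESeq2 called 2 lower and 0 higher in that comparison. Of all tested genes edgeR called 9.06% lower and 10.3% higher on fibronectin than on Geltrex. The small rRNA mt-Rnr1 had 666, 505 and 706 CPM in the control, 687, 630 and 1057 on Collagen I, 410, 460 and 472 on fibronectin, and 645, 597 and 640 on Geltrex. Collagen I replicate 3 was far above the rest, and the fibronectin samples were the lowest. Collagen I exceeded fibronectin by 0.82 (SE 0.16, edgeR Benjamini-Hochberg adjusted p = 0.000768), and by 0.56 without Collagen I replicate 3.

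Among 11 regulators of nuclear genes for mitochondrial proteins, 1 rose and 1 fell on fibronectin, and 2 rose and 1 fell on Geltrex. The shares of all tested genes were 17.1% higher and 14.7% lower on fibronectin, and 16.4% and 16.6% on Geltrex. The 2 of 11 that rose on Geltrex are near that share, and the counts of 1 are below theirs. On fibronectin 2 rose without control replicate 2, Collagen I replicate 2 or 3 or fibronectin replicate 3. The 1 that fell there was lost without control replicate 1 or 2 or fibronectin replicate 2, and 2 fell without fibronectin replicate 3. The 1 that fell on Geltrex was lost without any of the control and Geltrex replicates or Collagen I replicate 1 or 2. Gabpb2, a partner subunit of GABP, had 46.8, 51.1 and 48.9 CPM in the control, 54.2, 55.1 and 50.6 on Collagen I, 93.9, 95.2 and 79.7 on fibronectin, and 63.7, 66.6 and 65.7 on Geltrex. It rose by 0.87 on fibronectin (SE 0.08, edgeR Benjamini-Hochberg adjusted p = 9.96e-07) and by 0.42 on Geltrex (SE 0.08, adjusted p = 0.00091). Myc had 16.4, 12.2 and 15.4 CPM in the control, 15.3, 13.2 and 13.4 on Collagen I, 9.51, 12.5 and 20.2 on fibronectin, and 106, 97 and 96.5 on Geltrex, where it rose by 2.77 against the control (SE 0.19, edgeR Benjamini-Hochberg adjusted p = 3.32e-08). Ppargc1a, a coactivator of mitochondrial genes, had 1.99, 2.35 and 2.0 CPM in the control, 4.42, 4.87 and 2.54 on Collagen I, 2.41, 1.76 and 1.51 on fibronectin, and 1.41, 1.52 and 1.62 on Geltrex. It was higher on Collagen I than fibronectin by 1.06 (SE 0.24, edgeR Benjamini-Hochberg adjusted p = 0.00247) and than on Geltrex by 1.38 (SE 0.25, adjusted p = 0.000509). Collagen I replicate 3 was the lowest of its group, and without it these values were 1.29 and 1.61. Other regulators went the other way. DESeq2 called 2 of the 11 higher and 4 lower on Collagen I than fibronectin, and 1 higher and 4 lower than on Geltrex. Of all 14499 tested genes it called 2929 higher and 3332 lower on Collagen I than fibronectin, and 2430 and 2787 than on Geltrex. The shares by edgeR were 22.1% and 22.9%, and 18.2% and 19%. The 2 of 11 higher are near these shares and the 1 of 11 is below them. By edgeR the log2 fold change of Gabpb2, Collagen I over fibronectin, was -0.75 (SE 0.08, Benjamini-Hochberg adjusted p = 3.44e-06). That of Myc, Collagen I over Geltrex, was -2.84 (SE 0.19, edgeR Benjamini-Hochberg adjusted p = 2.51e-08).

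Cytosolic ribosomal proteins were taken by symbol, 104 genes of which 97 were tested. The symbol rule also takes in S6 kinases and Rps19bp1, 9 of the 97, which were set apart after their values were seen. Median log2 fold changes were compared, since the counts of calls in these lists changed with single libraries. Of the remaining 88 genes 33 were called higher on Collagen I than fibronectin, but 10 without Collagen I replicate 3 and 15 and 14 without fibronectin replicates 1 and 2. The medians of the 88 were -0.09 for fibronectin and 0.09 for Geltrex over the control, beside -0.24 and -0.16 for the mitochondrial ribosomal proteins. For all 97 they were -0.09 and 0.09, and for the 9 set apart -0.09 and -0.30. Rpl10a had a mean of 173 ± 12.9 CPM (SD, n = 3) in the control, 188 ± 23.1 on Collagen I, 178 ± 26.8 on fibronectin and 230 ± 6.48 on Geltrex, and rose on Geltrex by 0.41 (SE 0.11, edgeR Benjamini-Hochberg adjusted p = 0.00754).

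**Figure D5:**
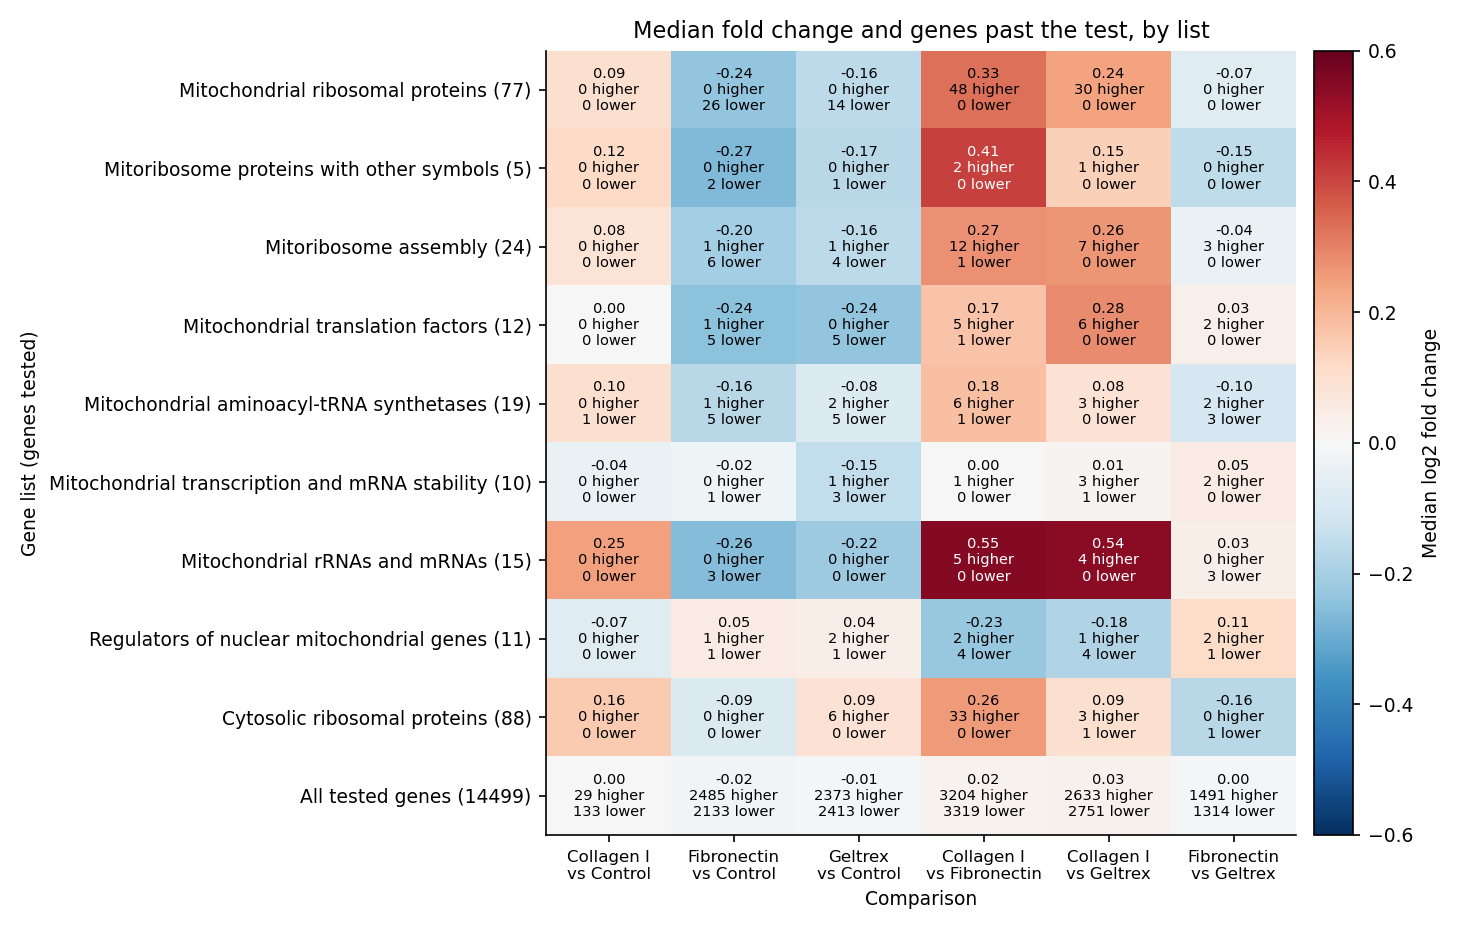
Median log2 fold change (color and first number) and number of genes past an adjusted p of 0.05 in each direction (the numbers after it) for 9 gene lists and all tested genes (rows, number tested in brackets) in the 6 comparisons (columns). The mitochondrial ribosomal proteins have medians of -0.24 and -0.16 for fibronectin and Geltrex over the control, and the cytosolic ribosomal proteins -0.09 and 0.09.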

How the data were processed

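The unit of the deposited table is the raw read count per gene. Upstream the authors used FastQC, Trimmomatic, HISAT2 and featureCounts, and the genome build, annotation, strand setting and treatment of multiply mapped reads are not given in the sources used here. All 55536 of 55536 gene IDs matched GENCODE M21 (GRCm38), which gave gene types, positions and exon lengths. Members were protein-coding genes with symbols of Mrpl or Mrps followed by a digit. The members and lists were chosen with earlier results of these data known.

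Genes needed 10 counts scaled to library size in 3 samples and 15 in total. edgeR 4.0.16 in R 4.3.3 (with limma 3.58.1) fitted the 4 groups by quasi-likelihood after TMM scaling, with Benjamini-Hochberg adjustment over 14499 genes. SE is the absolute log2 fold change over the square root of F. TPM used exon union lengths. Named members were, in each comparison, up to 4 called genes with the highest and 4 with the lowest log2 fold change whose groups did not overlap, the 2 with the smallest p where fewer were called, the 3 highest and lowest in TPM, and genes chosen for their role or overlap. In other lists they were up to 3 called genes with the largest log2 fold change in a comparison, of which some are printed.

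Alternatives were DESeq2 1.42.0, RLE scaling, total counts, no filter, at least 10 counts in every sample, only the 2 groups compared, replicate number as block, library GC content as covariate with and without that block, a 2-fold minimum, and leaving out each sample. The replicate numbers may not denote pairs.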

Additional observations from a re-analysis of the deposited data

How the results depend on the processing

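Each result was refitted under the alternative settings, and the cause of any change was not tested. Label moved: without Collagen I replicate 3 the median log2 fold change of the members between Collagen I and the control was 0.0076 (all left-out samples 0.0076 to 0.151, from 0.0947). Leaving out samples in turn gave 14 to 36 members lower on fibronectin than in the control (moved, from 26), 5 to 21 lower on Geltrex (moved, from 14), 14 to 32 higher on Collagen I than on Geltrex (moved, from 30), 0 to 1 lower on Collagen I than on fibronectin (moved, from 0), and 0 to 1 higher and 0 to 7 lower on fibronectin than on Geltrex (both moved, from 0). Over these fits 9.952% to 17.97% of all tested genes were called lower on fibronectin and 11.71% to 19.02% on Geltrex than in the control. Called higher on Collagen I than on Geltrex were 12.89% to 18.94%. With a fold change of at least 2 the counts were 0 (moved) for lower on fibronectin and on Geltrex than in the control and for higher on Collagen I than fibronectin and on Geltrex. With only the 2 groups compared 1 member, Mrpl50, was higher on fibronectin than on Geltrex (moved), and with at least 10 counts in every sample 1, Mrps18a, was lower (moved). None was reversed.

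With the replicate block 25 members were lower on fibronectin and 14 on Geltrex than in the control, and 50 and 31 were higher on Collagen I than fibronectin and Geltrex. For named members 468 of 495 values in other settings kept their call, 25 were weaker and 2 stronger, and with samples left out 591 of 660 kept it, 65 were weaker and 4 stronger. For genes of the other lists 866 of 909 and 1094 of 1212 kept it, and 43 and 118 were weaker.

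The limits are few samples, unknown origin of the replicates, unstated strand and mapping settings, small fold changes, and levels relative to all RNA of a sample.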
